A study of Homo sapiens with 24 samples.

Results

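Protein synthesis begins when initiation factors (eIFs) bring the initiator tRNA, the small ribosomal subunit and a capped mRNA together. It proceeds when elongation factors (eEFs) deliver amino-acyl tRNAs and move the ribosome along the message. The step that binds the mRNA cap is restrained by the eIF4E-binding proteins (4E-BPs), which mTOR kinase phosphorylates and so releases from eIF4E, and the initiator tRNA is carried by eIF2, which eIF2B recharges with GTP. MAP kinase signaling reaches the same machinery through kinases that phosphorylate eIF4E and eIF4B. The mRNA levels of the genes encoding these factors are described here in the AGS cell line, derived from a human gastric adenocarcinoma, after inhibitors of PI3 kinase and mTOR, of MEK and of TAK1.

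The genes were chosen by name alone: every row of the gene count table whose symbol starts with EIF or EEF followed by a digit, without the EIF2AK kinases and the pseudogenes, and with a mean of at least 10 counts over the 24 libraries. Of 23368 rows, 64 matched the name and 55 also passed the count minimum. Of the 9 under it, 1 is not described here. Those 55 genes include 51 named for translation factors or their regulators and 4 argonaute genes, which guide small-RNA silencing and are listed under the older symbols EIF2C1 to EIF2C4. All 55 were among the 13947 genes tested.

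The 6 groups had 4 libraries each, all harvested after 24 h. The control received no inhibitor, and whether it received the solvent is not stated in the labels. PI103, which inhibits class I PI3 kinases and mTOR, was used at 0.7 µM, the MEK inhibitor PD0325901 at 0.035 µM, and (5Z)-7-oxozeaenol, which inhibits TAK1 and is shortened to oxozeaenol below, at 0.5 µM. PI103 was also combined with oxozeaenol and with PD0325901, each agent then at 50% of its concentration alone, which is 0.35 µM PI103, 0.0175 µM PD0325901 and 0.25 µM oxozeaenol. The genotype is given as wild type in all groups, and AGS is 1 cancer line, so the values describe that line.

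Libraries held 38057638 to 84226380 counts in genes. KRT8, KRT18, KRT19 and EPCAM, markers of epithelium, were at 412 CPM or more in every library. PTPRC, COL1A2 and PECAM1, markers of leukocytes, fibroblasts and endothelium, were at no more than 0.182 CPM, while COL1A1, also a fibroblast marker, ranged from 7.93 to 34.2 CPM. CPM (counts-per-million, on library sizes scaled by TMM) are a relative measure: in bulk cultures, fewer cells expressing a gene and less of its RNA per cell cannot be told apart. The 55 genes took 3.33% to 3.50% of the counts in control libraries, 3.19% to 3.37% with PI103 and 2.76% to 3.17% in the other treated libraries. Without EEF1A1 their share was 1.91% to 1.94% in control and 1.34% to 1.63% in all treated libraries, so that every treated library lay below every control library.

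Many mRNAs of the translation machinery begin with a C followed by pyrimidines, the terminal oligopyrimidine (TOP) tract through which mTOR signaling is known to act on their translation. The first 20 transcribed bases are shown for members with such a start and for contrasting members, read from the RefSeq promoter table of the GRCh38.p14 assembly, with the pyrimidine run from the first base in capitals.
EEF1A1: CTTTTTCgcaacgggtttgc
EEF1B2: CCTTTTTCCTCTCTTCagcg
EEF2: CTCTTCCgccgtcgtcgccg
EIF3F: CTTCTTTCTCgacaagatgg
EIF4B: CTTTTgcgttctctttccct
EIF4A2: CTTTTCagtcgggcgctgag
EIF2S3: CTCTTTTggcaacatggcgg
EIF3D: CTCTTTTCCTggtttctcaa
EIF1: gccccagtcactgagccgcc
EIF1AX: gccatttgctgccgccgagc
EIF2S1: atgcgcggtggagtgagcga
Each begins the first exon of its transcript. On the plus strand are EEF1B2 (chr2:206159895-206159914), EIF3F (chr11:7987337-7987356), EIF4B (chr12:53006456-53006475), EIF4A2 (chr3:186783577-186783596), EIF2S3 (chrX:24054956-24054975), EIF1 (chr17:41688885-41688904) and EIF2S1 (chr14:67360328-67360347). On the minus strand are EEF1A1 (chr6:73521013-73521032), EEF2 (chr19:3985444-3985463), EIF3D (chr22:36529147-36529166) and EIF1AX (chrX:20141819-20141838). EEF1B2 has another start in that table, without the run. A promoter entry was found for 46 of the 55 genes. Of these, 12 (26.1%) had a start with C and a pyrimidine run of 5 or more bases, against 5.14% of 27303 genes in the table.

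The window of 250 bases upstream was also read for the E-box CACGTG, which MYC and related factors bind, and for TGATGNAAN, a core of the amino acid response element bound by ATF4, both on either strand. The E-box was found in 10 of the 46 genes (21.7%), against 7.73% of all genes in the table, and the other motif in 1, EIF4E3 (2.17%, against 3.87%). EIF4EBP1, EIF2S2 and EIF3A were among the genes without a promoter entry, so neither motif was looked for in them. Windows of 3 members with an E-box follow, because EIF1B and EIF2B3 fell with every treatment and EIF4E is the cap-binding protein, with the E-box in capitals.
EIF1B: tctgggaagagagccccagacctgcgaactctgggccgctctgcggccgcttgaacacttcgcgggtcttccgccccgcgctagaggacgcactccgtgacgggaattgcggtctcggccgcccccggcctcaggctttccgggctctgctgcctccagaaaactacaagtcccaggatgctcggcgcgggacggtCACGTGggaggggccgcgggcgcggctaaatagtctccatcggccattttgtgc
EIF2B3: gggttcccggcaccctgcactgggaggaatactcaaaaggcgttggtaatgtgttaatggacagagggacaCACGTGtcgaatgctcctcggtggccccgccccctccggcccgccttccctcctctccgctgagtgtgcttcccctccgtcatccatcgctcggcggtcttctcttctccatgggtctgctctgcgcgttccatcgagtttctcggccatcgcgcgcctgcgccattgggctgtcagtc
EIF4E: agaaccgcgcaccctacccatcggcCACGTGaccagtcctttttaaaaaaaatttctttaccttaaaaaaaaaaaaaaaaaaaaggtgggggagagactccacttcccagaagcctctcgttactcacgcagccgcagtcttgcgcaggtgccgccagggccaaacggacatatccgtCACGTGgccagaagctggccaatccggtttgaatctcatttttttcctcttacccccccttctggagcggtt
These windows are chr3:40309457-40309706 on the plus strand, chr1:44986596-44986845 on the minus strand and chr4:98929134-98929383 on the minus strand of GRCh38.p14. A match is a description of the letters, and binding was not measured. In each treatment the median log2 fold change was nearer to no change for the 10 genes with an E-box than for the 36 without. The medians were -0.07 against -0.30 for PI103, -0.17 against -0.37 for PD0325901 and -0.11 against -0.22 for oxozeaenol. When PI103 was combined, they were -0.17 against -0.33 beside oxozeaenol and -0.33 against -0.47 beside PD0325901. These differences were not tested.

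Most genes that passed the test were lower in treated cells than in control: those of the start site group (which also holds EIF5B and EIF6), eIF2, eIF2B and eIF3 made up most of the falls, while EIF4EBP2 rose. Among the 6 genes named for eEF1 and eEF2, none was higher. The numbers lower were 1, 3, 1, 1 and 3 with PI103, PD0325901, oxozeaenol, PI103 with oxozeaenol and PI103 with PD0325901. The shares of all genes lower were 25.2%, 29.9%, 26.1%, 27.9% and 32.6% in that order. EEF1E1, which encodes a subunit of the multi-synthetase complex despite its name, was the 1 lower with PI103. EEF1E1 was also among those lower with PD0325901 and with PI103 and PD0325901. A gene counts as called when the adjusted p of edgeR's quasi-likelihood test was under 0.05. With PI103, 38 of the 55 genes passed the test, against 51.4% of all genes tested. Of these, 6 were higher (26.2% of all genes) and 32 lower (25.2% of all genes). Under upper-quartile scaling the split was 10 higher and 27 lower. With PD0325901, 38 passed (58.6% of all genes), 4 higher (28.7%) and 34 lower (29.9%). With oxozeaenol, 28 passed (51.9%), 2 higher (25.7%) and 26 lower (26.1%).

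The combination of PI103 with oxozeaenol gave 34 calls (55.6% of all genes), 3 higher (27.7%) and 31 lower (27.9%). PI103 with PD0325901 gave 42 calls (64.8% of all genes), 4 higher (32.2%) and 38 lower (32.6%). The median log2 fold change over the 55 genes was -0.29 with PI103, -0.33 with PD0325901 and -0.21 with oxozeaenol. In the combinations it was -0.32 where PI103 was given beside oxozeaenol and -0.45 where it was given beside PD0325901. The median over all genes tested lay between -0.02 and 0.02 in each comparison. These 5 comparisons share the same 4 control libraries. A test for changes beyond 1.2-fold (edgeR's glmTreat) left 18, 25, 14, 23 and 33 genes in the same order of treatments, where 31.9%, 40.3%, 32.0%, 35.8% and 48.4% of all genes passed.

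**Figure D1:**
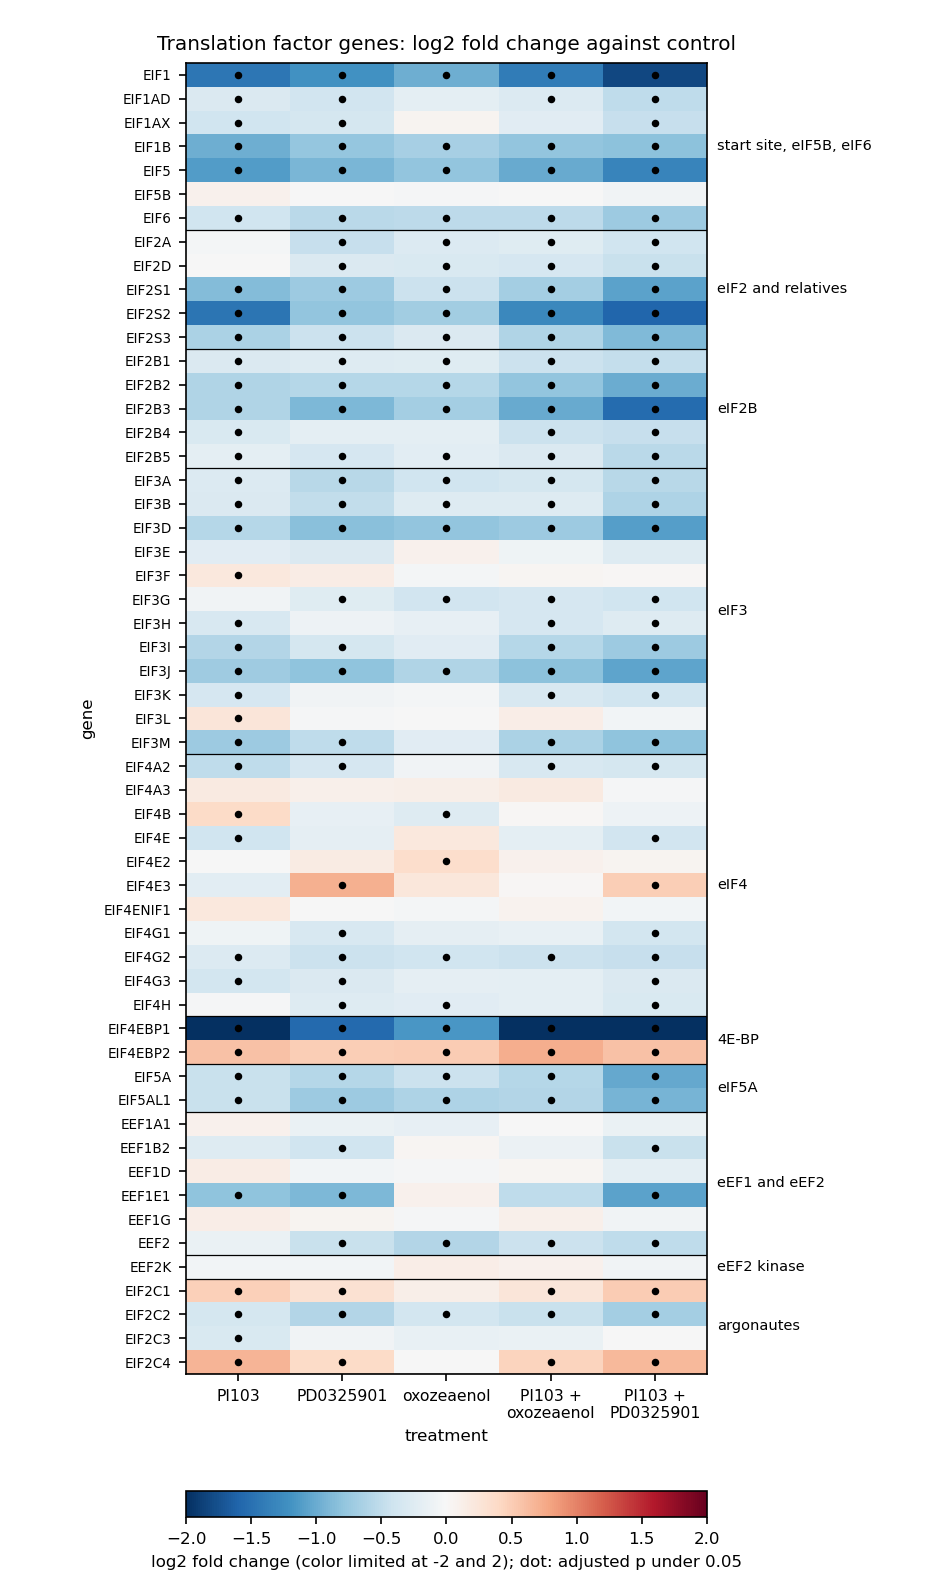
Log2 fold change against control (color, limited at -2 and 2) for each of the 55 genes (rows, grouped by role) in the 5 treatments (columns), with a dot where the adjusted p was under 0.05. Blue fills most of the start site, eIF2, eIF2B and eIF3 rows, EIF4EBP2 is red in all 5 columns, and EEF1A1 and EEF1G carry no dot.

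The deepest fall among the 55 genes, in each of the 5 treatments, belonged to a repressor. EIF4EBP1 encodes 4E-BP1, which holds eIF4E away from eIF4G until mTOR phosphorylates it. It stood at 172, 207, 145 and 232 CPM in the 4 control libraries. It stood at 28.7, 36.2, 25.0 and 26.4 CPM with PI103, at 85.1, 36.1, 76.7 and 58.1 CPM with PD0325901, and at 90.1, 110, 77.4 and 60.2 CPM with oxozeaenol. With PI103 and oxozeaenol it read 37.1, 59.3, 37.8 and 37.4 CPM, and with PI103 and PD0325901 it read 23.1, 20.4, 24.7 and 25.1 CPM. Every treated library was below every control library, and the libraries of PI103 with PD0325901 were the lowest, overlapping those of PI103 alone at their edge. PD0325901 replicate 2 was the 1 library of the other groups within the PI103 range.

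EIF4EBP1 changed by -2.70 on the log2 scale with PI103 (SE 0.23, adjusted p 1.2e-09), by -1.56 with PD0325901 (SE 0.22, adjusted p 1.8e-06) and by -1.16 with oxozeaenol (SE 0.22, adjusted p 0.00010). It changed by -2.14 with PI103 and oxozeaenol (SE 0.22, adjusted p 2.7e-08) and by -3.02 with PI103 and PD0325901 (SE 0.23, adjusted p 8.7e-11). PI103 lowered it further than PD0325901 did, by -1.14 (SE 0.22, adjusted p 0.00017), and further than oxozeaenol did, by -1.54 (SE 0.22, adjusted p 6.1e-06). Between oxozeaenol and PD0325901 the difference was 0.40 (SE 0.22, adjusted p 0.17), which did not pass.

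EIF4EBP2, encoding the related repressor 4E-BP2, went the other way. Control libraries held 164, 137, 161 and 133 CPM, and PI103 libraries held 228, 218, 233 and 214 CPM. The PD0325901 libraries held 208, 243, 195 and 196 CPM and the oxozeaenol libraries 240, 198, 204 and 203 CPM. With PI103 the combinations held 257, 242, 245 and 236 CPM beside oxozeaenol and 244, 212, 225 and 217 CPM beside PD0325901. All 20 treated libraries exceeded all 4 control libraries, and the libraries of PI103 with oxozeaenol were above those of PI103 alone.

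EIF4EBP2 rose by 0.59 with PI103 (SE 0.09, adjusted p 3.4e-06), by 0.50 with PD0325901 (SE 0.09, adjusted p 2.1e-05) and by 0.51 with oxozeaenol (SE 0.09, adjusted p 2.6e-05). It rose by 0.72 with PI103 and oxozeaenol (SE 0.09, adjusted p 1.2e-07) and by 0.59 with PI103 and PD0325901 (SE 0.09, adjusted p 1.5e-06). The 3 single agents did not separate on it: PI103 less PD0325901 was 0.09 (SE 0.09, adjusted p 0.44) and PI103 less oxozeaenol was 0.08 (SE 0.09, adjusted p 0.48).

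The ratio of these repressor mRNAs in control did not overlap that in any treated group. On the scale of CPM per kilobase of exon in GENCODE release 29, EIF4EBP1 was 8.80 ± 2.65 times EIF4EBP2 in control (SD, n = 4). The lengths join all annotated exons, 1.07 kilobases for EIF4EBP1 and 7.26 for EIF4EBP2. The size of the ratio depends on these lengths, which were the same for all groups. The ratio was 2.11 ± 0.810 with PD0325901 (SD, n = 4) and 2.72 ± 0.741 with oxozeaenol (SD, n = 4). It was 0.883 ± 0.170 with PI103 (SD, n = 4), 1.19 ± 0.316 with PI103 and oxozeaenol (SD, n = 4) and 0.703 ± 0.0694 with PI103 and PD0325901 (SD, n = 4). The lowest control ratio, 6.12, was above the highest treated ratio, 3.76 in an oxozeaenol library. EIF4EBP3, encoding the third repressor, was under the count minimum with 75 counts over all libraries, and 73.4% of its exon length overlaps the readthrough gene ANKHD1-EIF4EBP3 on the same strand, so its own level is uncertain.

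**Figure D2:**
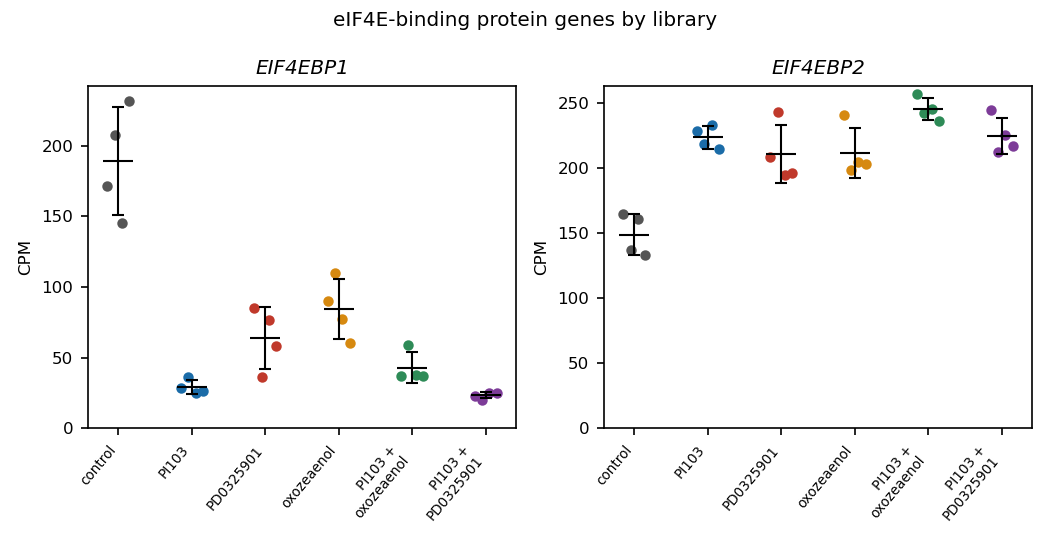
CPM (counts-per-million of the scaled library size) of EIF4EBP1 and EIF4EBP2 in each of 24 libraries, as points by group, with bars for the mean and SD of 4 libraries. EIF4EBP1 is highest in control (145 to 232 CPM) and lowest with PI103 and PD0325901 together (20.4 to 25.1 CPM), while EIF4EBP2 is lowest in control.

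Over the 24 libraries, the 3 genes whose log2 CPM followed EIF4EBP1 most closely among 13946 others were ATF4 (Pearson r 0.988), which encodes the transcription factor of the amino acid response, TIMM44 (r 0.988), which encodes a mitochondrial import subunit, and ARPC5L (r 0.985), which encodes an actin-nucleating complex subunit. These coefficients describe the same 24 libraries and 6 groups, so they hold the differences between groups as well as those between libraries.

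Among the factors that find the start codon, EIF1, whose product keeps the scanning ribosome from starting at the wrong codon, fell the most. Its control libraries held 1097, 1212, 958 and 1268 CPM. It was at 442, 428, 393 and 396 CPM with PI103, at 551, 373, 572 and 470 CPM with PD0325901 and at 591, 658, 575 and 472 CPM with oxozeaenol. With PI103 and oxozeaenol it was at 433, 485, 403 and 404 CPM, and with PI103 and PD0325901 at 322, 305, 334 and 328 CPM. No treated library reached the control range, and the PI103 with PD0325901 libraries were below those of every other group.

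EIF1 fell by 1.45 with PI103 (SE 0.12, adjusted p 2.2e-10), by 1.21 with PD0325901 (SE 0.12, adjusted p 2.9e-09), by 0.98 with oxozeaenol (SE 0.12, adjusted p 1.4e-07), by 1.39 with PI103 and oxozeaenol (SE 0.12, adjusted p 3.3e-10) and by 1.81 with PI103 and PD0325901 (SE 0.12, adjusted p 1.9e-12). EIF1B, its close relative, fell by 0.97, 0.77, 0.66, 0.78 and 0.82 in the same order. EIF5, the GTPase activator of eIF2 at the start codon, fell from 1104, 1446, 1319 and 1467 CPM in control to 664, 580, 624 and 592 CPM with PI103 and to 509, 494, 571 and 573 CPM with PI103 and PD0325901. Its libraries held 777, 541, 748 and 761 CPM with PD0325901, 705, 936, 823 and 622 CPM with oxozeaenol, and 629, 714, 672 and 631 CPM with PI103 and oxozeaenol, all under the control range.

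EIF5 thus changed by -1.12 with PI103 (adjusted p 2.9e-08), -0.92 with PD0325901 (adjusted p 4.1e-07), -0.79 with oxozeaenol (adjusted p 5.4e-06), -1.01 with PI103 and oxozeaenol (adjusted p 1.1e-07) and -1.31 with PI103 and PD0325901 (adjusted p 7.8e-10), each with an SE of 0.12. EIF5B, which joins the ribosomal subunits, was called in none of the 5 comparisons, with log2 fold changes from -0.06 to 0.08. EIF6, which keeps free large subunits from joining, fell by 0.40 to 0.73. The 7 genes grouped here were EIF1, EIF1AX, EIF1AD, EIF1B, EIF5, EIF5B and EIF6, not all of which act at the start codon. Of these 7, 6 were lower with PI103, 6 with PD0325901 and 4 with oxozeaenol, and 5 and 6 were lower in the combinations of PI103 with oxozeaenol and PD0325901. None was higher. The shares of all genes lower were 25.2%, 29.9%, 26.1%, 27.9% and 32.6% in that order.

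The 3 subunits of eIF2 all fell. EIF2S2, encoding the beta subunit, held 809, 913, 897 and 964 CPM in control, 337, 343, 320 and 300 CPM with PI103, 537, 435, 595 and 515 CPM with PD0325901 and 568, 648, 548 and 455 CPM with oxozeaenol. It held 354, 444, 348 and 324 CPM with PI103 and oxozeaenol and 289, 298, 310 and 297 CPM with PI103 and PD0325901. The PI103 libraries lay wholly below those of PD0325901 and of oxozeaenol, which overlapped each other. Its log2 fold changes were -1.46 with PI103 (SE 0.11, adjusted p 4.9e-11), -0.78 with PD0325901 (SE 0.11, adjusted p 7.7e-07) and -0.69 with oxozeaenol (SE 0.11, adjusted p 6.8e-06). They were -1.28 with PI103 and oxozeaenol (SE 0.11, adjusted p 3.2e-10) and -1.59 with PI103 and PD0325901 (SE 0.11, adjusted p 4.2e-12).

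EIF2S1, encoding the alpha subunit whose phosphorylation by the stress kinases slows initiation, was at 443, 462, 431 and 472 CPM in control. It was at 252, 248, 253 and 238 CPM with PI103, at 268, 227, 303 and 295 CPM with PD0325901 and at 321, 350, 376 and 298 CPM with oxozeaenol. With PI103 and oxozeaenol it was at 271, 306, 279 and 271 CPM and with PI103 and PD0325901 at 197, 197, 231 and 231 CPM. Control was above all treated libraries, and the oxozeaenol libraries were above those of PI103. EIF2S1 fell by 0.87 with PI103 (SE 0.09, adjusted p 1.6e-08), by 0.73 with PD0325901 (SE 0.09, adjusted p 1.8e-07), by 0.43 with oxozeaenol (SE 0.09, adjusted p 0.00032), by 0.68 with PI103 and oxozeaenol (SE 0.09, adjusted p 5.8e-07) and by 1.08 with PI103 and PD0325901 (SE 0.09, adjusted p 1.5e-10).

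EIF2S3, encoding the GTP-binding gamma subunit, fell by 0.64, 0.43, 0.28, 0.61 and 0.88 in the order PI103, PD0325901, oxozeaenol, PI103 with oxozeaenol and PI103 with PD0325901. EIF2A and EIF2D, which can deliver tRNA to ribosomes apart from eIF2, differed from the subunits with PI103: their log2 fold changes were -0.04 (adjusted p 0.66) and -0.00 (adjusted p 0.98), whereas with PD0325901 they fell by 0.46 and 0.28. The direct difference of PI103 less PD0325901 was 0.42 for EIF2A (adjusted p 9.6e-05) and 0.28 for EIF2D (adjusted p 0.0023).

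The exchange factor eIF2B, which recharges eIF2 with GTP, was lower as a group as well. All 5 subunit genes were lower with PI103 and in both combinations, and 4 of 5 with PD0325901 and with oxozeaenol, where EIF2B4 missed the threshold at -0.19 in both (adjusted p 0.055 and 0.060). EIF2B3, encoding the gamma subunit, held 35.8, 37.4, 37.5 and 37.5 CPM in control, 25.1, 26.5, 23.5 and 22.7 CPM with PI103, 20.2, 15.2, 23.1 and 20.8 CPM with PD0325901 and 23.5, 24.8, 28.0 and 16.5 CPM with oxozeaenol. It held 17.0, 21.0, 20.7 and 15.1 CPM with PI103 and oxozeaenol and 13.0, 11.7, 14.4 and 11.9 CPM with PI103 and PD0325901. The last group lay below every other library.

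EIF2B3 fell by 0.60 with PI103 (SE 0.13, adjusted p 0.00041), by 0.90 with PD0325901 (SE 0.13, adjusted p 1.8e-06), by 0.68 with oxozeaenol (SE 0.13, adjusted p 0.00011), by 1.00 with PI103 and oxozeaenol (SE 0.13, adjusted p 4.4e-07) and by 1.53 with PI103 and PD0325901 (SE 0.13, adjusted p 2.4e-10). EIF2B5, encoding the catalytic epsilon subunit, fell less, by 0.20 with PI103 (SE 0.08, adjusted p 0.033), 0.33 with PD0325901 (SE 0.08, adjusted p 0.00077), 0.21 with oxozeaenol (SE 0.08, adjusted p 0.027), 0.28 with PI103 and oxozeaenol (SE 0.08, adjusted p 0.0035) and 0.54 with PI103 and PD0325901 (SE 0.08, adjusted p 1.4e-06). Its calls with PI103 and with oxozeaenol were lost under upper-quartile scaling (adjusted p 0.15 and 0.084) and without single libraries. These were control replicates 1 and 3 in both comparisons, PI103 replicates 1, 3 and 4, and oxozeaenol replicates 2 and 4 (highest adjusted p 0.10 in each).

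**Figure D3:**
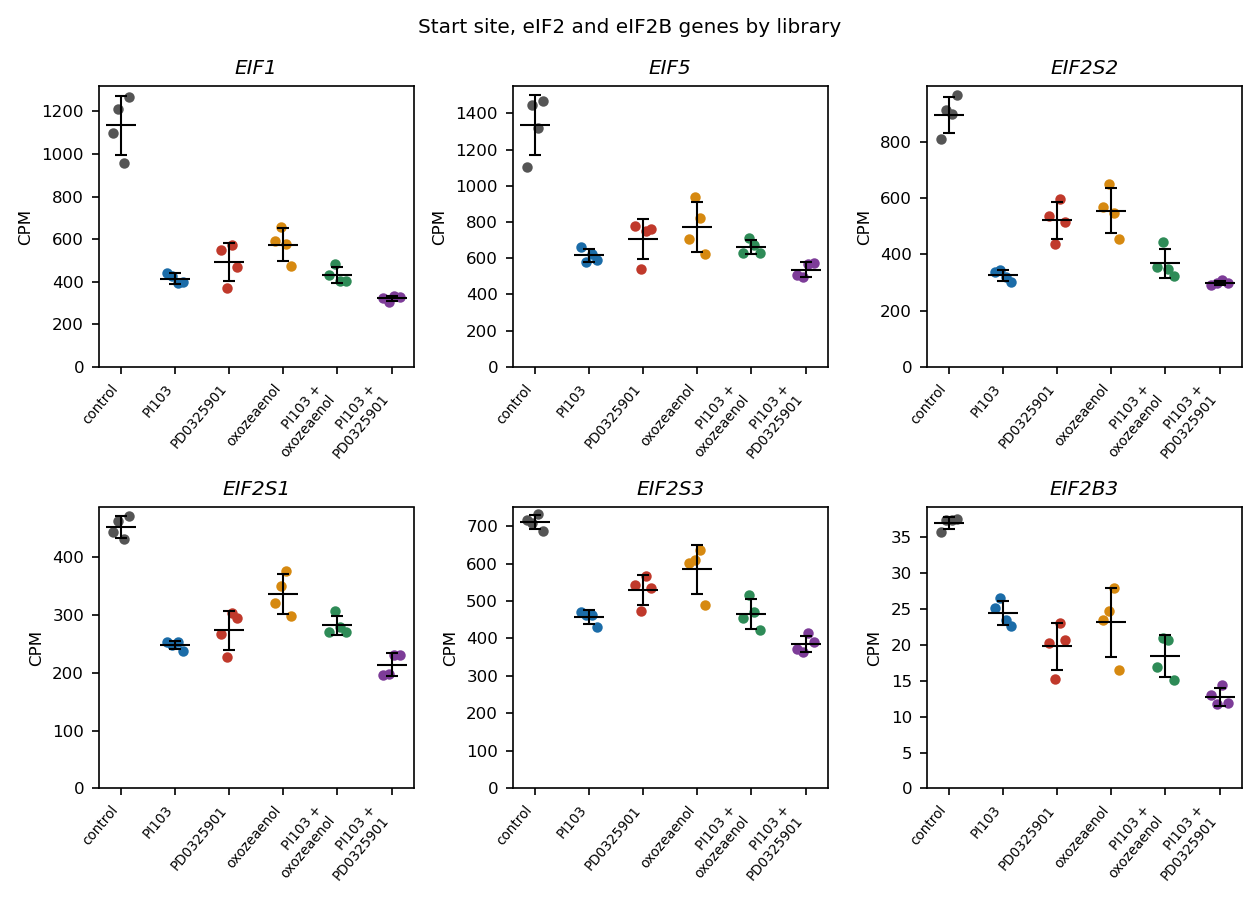
CPM of EIF1, EIF5, EIF2S2, EIF2S1, EIF2S3 and EIF2B3 in each library, as points by group, with bars for the mean and SD of 4 libraries. In all 6 panels the control libraries lie above every treated library and the mean is lowest with PI103 and PD0325901.

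The scaffold eIF3, which holds the small subunit open for mRNA, was mixed. Of 12 measured subunit genes, 8 were lower and 2 higher with PI103, 7 lower with PD0325901, 5 lower with oxozeaenol, and 9 lower with either combination. EIF3A, encoding the largest subunit, fell by 0.28 with PI103 (adjusted p 0.020), 0.56 with PD0325901 (adjusted p 2.8e-05), 0.39 with oxozeaenol (adjusted p 0.0017), 0.35 with PI103 and oxozeaenol (adjusted p 0.0041) and 0.55 with PI103 and PD0325901 (adjusted p 2.5e-05), each with an SE of 0.10. The PI103 call for EIF3A was lost under upper-quartile scaling (adjusted p 0.071) and without control replicate 1, control replicate 3 or PI103 replicate 4 (highest adjusted p 0.090).

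Larger falls were seen for EIF3D, a subunit that can bind the cap itself, and EIF3J, a loosely bound subunit. EIF3D fell by 0.57, 0.84, 0.78, 0.73 and 1.10 with PI103, PD0325901, oxozeaenol, PI103 with oxozeaenol and PI103 with PD0325901, and EIF3J by 0.71, 0.81, 0.61, 0.82 and 1.05. EIF3M fell by 0.72 with PI103, and its value with oxozeaenol was -0.22 (adjusted p 0.12). PI103 less oxozeaenol was -0.50 for EIF3M (adjusted p 0.0015).

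The 2 subunit genes that were higher with PI103 were EIF3F (0.22, SE 0.09, adjusted p 0.036) and EIF3L (0.24, SE 0.07, adjusted p 0.0081). EIF3F held 191, 174, 171 and 184 CPM in control and 217, 225, 199 and 196 CPM with PI103, without overlap. Its call was lost without PI103 replicate 1 or 2 or control replicate 2, 3 or 4 (highest adjusted p 0.12). EIF3L shares 41.1% of its exon length with another same-strand gene, AL022311.1, so its counts are uncertain. EIF3E, listed among TOP mRNAs, had log2 fold changes of -0.23, -0.29 and -0.26 with PI103, PD0325901 and PI103 with PD0325901, which passed only with the replicate number as a block (adjusted p 0.038, 0.0093 and 0.013). EIF3C and its near-identical copy EIF3CL held 66 and 0 counts over all libraries, and their levels are unknown here, since near-identical copies can share reads.

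The main eIF4 factors bind the cap and unwind the leader of the mRNA. Of 11 measured genes with eIF4 names, 4 were lower and 1 higher with PI103, 5 and 1 with PD0325901, 3 and 1 with oxozeaenol, 2 and 0 with PI103 and oxozeaenol, and 6 and 1 with PI103 and PD0325901. Of all genes tested, 25.2%, 29.9%, 26.1%, 27.9% and 32.6% were lower in that order. The shares higher were 26.2%, 28.7%, 25.7%, 27.7% and 32.2%. EIF4A3 and EIF4ENIF1, counted here by name, were called in no treatment. EIF4E, encoding the cap-binding protein, held 243, 245, 260 and 218 CPM in control and 185, 170, 193 and 181 CPM with PI103. It held 200, 186, 213 and 254 CPM with PD0325901 and 249, 283, 332 and 259 CPM with oxozeaenol. In the combinations it held 197, 234, 208 and 207 CPM beside oxozeaenol and 159, 171, 200 and 215 CPM beside PD0325901. The libraries of PI103 and of PI103 with PD0325901 were below all controls, and those of the other 3 treatments overlapped the control range.

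EIF4E fell by 0.41 with PI103 (SE 0.11, adjusted p 0.0023) and by 0.38 with PI103 and PD0325901 (SE 0.11, adjusted p 0.0030). Its values were -0.18 with PD0325901 (SE 0.11, adjusted p 0.15), 0.21 with oxozeaenol (SE 0.11, adjusted p 0.091) and -0.19 with PI103 and oxozeaenol (SE 0.11, adjusted p 0.13). Under upper-quartile scaling the oxozeaenol value was 0.27 (adjusted p 0.025). PI103 less oxozeaenol was -0.62 (SE 0.11, adjusted p 4.1e-05) and oxozeaenol less PD0325901 was 0.39 (SE 0.11, adjusted p 0.0073).

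EIF4B, encoding a helper of the helicase eIF4A and a TOP mRNA, was the one gene of the 55 called in both directions. It held 590, 485, 607 and 491 CPM in control, 740, 734, 737 and 626 CPM with PI103, 474, 535, 499 and 430 CPM with PD0325901 and 489, 454, 479 and 396 CPM with oxozeaenol. It held 570, 569, 565 and 499 CPM with PI103 and oxozeaenol and 554, 471, 537 and 475 CPM with PI103 and PD0325901. The PI103 libraries were above all the others, and the other treated groups overlapped control.

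EIF4B rose by 0.38 with PI103 (SE 0.10, adjusted p 0.0017) and fell by 0.26 with oxozeaenol (SE 0.10, adjusted p 0.028). The oxozeaenol call was lost under upper-quartile scaling (adjusted p 0.064) and without control replicate 1 or 3 or oxozeaenol replicate 2 or 4 (highest adjusted p 0.13). With PD0325901 its value was -0.17 (adjusted p 0.14), which passed with the replicate block (adjusted p 0.046). PI103 less PD0325901 was 0.55 (SE 0.10, adjusted p 4.6e-05) and PI103 less oxozeaenol was 0.64 (SE 0.10, adjusted p 7.9e-06). In the combinations, where PI103 was at 50% of its single concentration, EIF4B was lower than with PI103 alone, by -0.36 beside oxozeaenol (adjusted p 0.0087) and by -0.48 beside PD0325901 (adjusted p 0.00035).

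EIF4A2, encoding a helicase of the complex, fell by 0.51 with PI103 (SE 0.13, adjusted p 0.0025) and by 0.33 with PD0325901 (SE 0.13, adjusted p 0.036). It fell by 0.33 with PI103 and oxozeaenol (SE 0.13, adjusted p 0.041) and by 0.35 with PI103 and PD0325901 (SE 0.13, adjusted p 0.024), and its value was -0.07 with oxozeaenol (SE 0.13, adjusted p 0.67). Upper-quartile scaling ended the last 3 of the 4 calls (adjusted p 0.14, 0.12 and 0.18). So did leaving out control replicate 2 or 4, PD0325901 replicate 1 or 2, PI103 with oxozeaenol replicate 1, 2 or 3, or PI103 with PD0325901 replicate 1 (highest adjusted p 0.16, 0.17 and 0.11). EIF4A1, encoding the main helicase paralog, is listed at 0 in all 24 libraries and the readthrough row SENP3-EIF4A1 held 131 counts. Of the EIF4A1 exon length, 48.6% overlaps same-strand genes, and the gene has 13 named pseudogenes. Why it is listed at 0 was not tested, and its level is unknown here.

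EIF4G1, encoding the scaffold of eIF4F, fell by 0.32 with PD0325901 (SE 0.10, adjusted p 0.0090) and by 0.36 with PI103 and PD0325901 (SE 0.10, adjusted p 0.0030). Its values were -0.09 with PI103 (adjusted p 0.46), -0.18 with oxozeaenol (adjusted p 0.14) and -0.15 with PI103 and oxozeaenol (adjusted p 0.22). The PD0325901 call sat at the threshold under upper-quartile scaling (adjusted p 0.050) and without control replicate 1 (adjusted p 0.053). EIF4G2, a relative that lacks the eIF4E-binding region, fell by 0.27 to 0.46.

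EIF4E3, a low-level relative of eIF4E, held 8.36, 7.73, 10.8 and 7.65 CPM in control, 13.0, 17.5, 13.0 and 12.8 CPM with PD0325901, and 9.49, 17.2, 10.4 and 11.5 CPM with PI103 and PD0325901. It held 8.52, 6.87, 8.38 and 6.24 CPM with PI103, 9.24, 12.01, 9.51 and 9.63 CPM with oxozeaenol, and 8.48, 9.85, 9.39 and 7.499 CPM with PI103 and oxozeaenol. All PD0325901 libraries were above control, and replicate 2 was the highest of its group in both groups that received PD0325901. EIF4E3 rose by 0.70 with PD0325901 (SE 0.16, adjusted p 0.00053) and by 0.49 with PI103 and PD0325901 (SE 0.16, adjusted p 0.0099). The second call was lost without its replicate 2 (adjusted p 0.11). PI103 less PD0325901 was -0.91 (SE 0.16, adjusted p 5.5e-05). EIF4E2, another relative, rose by 0.34 with oxozeaenol (SE 0.12, adjusted p 0.020), a call lost without control replicate 3 or oxozeaenol replicate 3 (highest adjusted p 0.087).

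Of the 6 genes named for eEF1 and eEF2, 4 had the highest mean CPM per kilobase of all members, while EEF1D and EEF1E1 were at 25.9 and 22.9 CPM per kilobase, below many initiation factors. The length used joins all annotated exons of a gene, 9.39 kilobases for EEF1D. The order of genes depends on that choice. Per kilobase of exon in control, EEF1A1, which carries amino-acyl tRNA to the ribosome, was first at 2624 ± 178 CPM per kilobase (SD, n = 4), followed by EEF1G at 488 ± 20.8 (SD, n = 4), EEF2 at 427 ± 32.4 (SD, n = 4) and EEF1B2 at 400 ± 61.8 (SD, n = 4). EEF1A1 stood apart from all others, while the ranges of EEF1G, EEF2 and EEF1B2 overlapped. EEF1G shares 99.9% of its exon length with the same-strand gene AP002990.1 and EEF1A1 has 39 named pseudogenes, so both levels are uncertain. The next in the order were EIF2S2 at 337 ± 24.3 (SD, n = 4) and EIF1 at 313 ± 37.8 (SD, n = 4), and each overlapped its neighbor in the order.

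EEF1A1 held 14773, 16343, 14632 and 16686 CPM in control, 17798, 15866, 16411 and 16105 CPM with PI103, 13682, 12869, 15381 and 15055 CPM with PD0325901 and 12707, 14484, 15514 and 12772 CPM with oxozeaenol. It held 15956, 14796, 16403 and 14964 CPM with PI103 and oxozeaenol and 13018, 14526, 14817 and 14845 CPM with PI103 and PD0325901. Each treated group overlapped control. Its log2 fold changes ran from -0.17 with oxozeaenol (SE 0.09, adjusted p 0.13) to 0.08 with PI103 (SE 0.09, adjusted p 0.47), and none of the 5 passed. PI103 less oxozeaenol was 0.25 (SE 0.09, adjusted p 0.030). EEF1A2, the muscle and neuron paralog, had 5 counts over all libraries.

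EEF2, which moves the ribosome by 1 codon, held 1890, 1627, 1607 and 1748 CPM in control and 1538, 1704, 1491 and 1535 CPM with PI103. It held 1399, 1236, 1276 and 1151 CPM with PD0325901, 1327, 1132, 1177 and 918 CPM with oxozeaenol, 1327, 1303, 1330 and 1142 CPM with PI103 and oxozeaenol and 1387, 1120, 1236 and 1084 CPM with PI103 and PD0325901. PI103 alone overlapped control, and the other 4 treated groups were below it.

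EEF2 fell by 0.44 with PD0325901 (SE 0.10, adjusted p 0.00067), by 0.59 with oxozeaenol (SE 0.10, adjusted p 3.3e-05), by 0.43 with PI103 and oxozeaenol (SE 0.10, adjusted p 0.00098) and by 0.51 with PI103 and PD0325901 (SE 0.10, adjusted p 0.00012). With PI103 alone its value was -0.13 (SE 0.10, adjusted p 0.29). PI103 less oxozeaenol was 0.46 (SE 0.10, adjusted p 0.00082) and PI103 less PD0325901 was 0.31 (SE 0.10, adjusted p 0.017). EEF2K, the kinase that inhibits eEF2, ranged from -0.07 to 0.14 in log2 fold change against control and passed in none of the 5 comparisons. The signs of its values with PI103, PD0325901 and PI103 with PD0325901 turned under upper-quartile scaling.

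EEF1E1, which encodes a subunit of the multi-synthetase complex despite its name, held 41.4, 56.0, 48.9 and 46.7 CPM in control and 25.3, 22.0, 30.0 and 32.8 CPM with PI103. It held 23.3, 19.5, 27.3 and 33.2 CPM with PD0325901, 32.8, 43.7, 64.1 and 64.7 CPM with oxozeaenol, 26.1, 33.8, 31.8 and 44.3 CPM with PI103 and oxozeaenol and 15.9, 17.3, 27.7 and 31.2 CPM with PI103 and PD0325901. The oxozeaenol libraries spread across the control range, while PI103, PD0325901 and both together were below it.

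EEF1E1 fell by 0.81 with PI103 (SE 0.22, adjusted p 0.0042), by 0.90 with PD0325901 (SE 0.22, adjusted p 0.0014) and by 1.07 with PI103 and PD0325901 (SE 0.23, adjusted p 0.00023). Its values were 0.09 with oxozeaenol (SE 0.22, adjusted p 0.76) and -0.50 with PI103 and oxozeaenol (SE 0.22, adjusted p 0.058), the latter -0.54 with the replicate block (adjusted p 0.0024). Oxozeaenol less PD0325901 was 0.99 (SE 0.23, adjusted p 0.0024). EIF5A, whose hypusine-bearing product helps ribosomes through difficult stretches, fell by 0.45 with PI103 (SE 0.13, adjusted p 0.0045), 0.58 with PD0325901 (SE 0.13, adjusted p 0.00034), 0.44 with oxozeaenol (SE 0.13, adjusted p 0.0054), 0.57 with PI103 and oxozeaenol (SE 0.13, adjusted p 0.00045) and 1.02 with PI103 and PD0325901 (SE 0.13, adjusted p 1.2e-07). EIF5AL1, a near copy, fell by 0.44 to 0.93, and reads of the pair may be shared. EIF5A2 was just under the count minimum with 237 counts over all libraries.

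**Figure D4:**
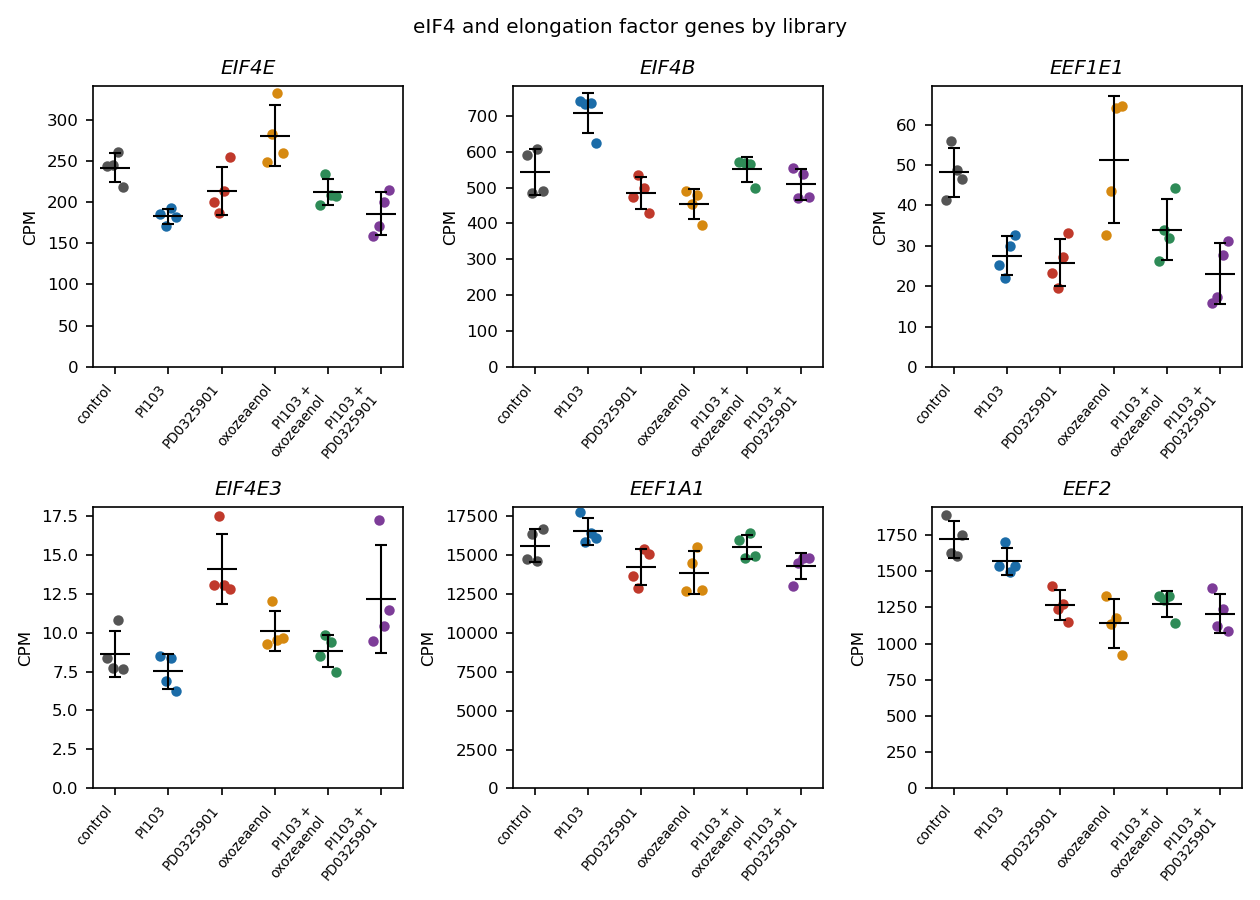
CPM of EIF4E, EIF4B, EEF1E1, EIF4E3, EEF1A1 and EEF2 in each library, as points by group, with bars for the mean and SD of 4 libraries. EIF4B is highest with PI103 (626 to 740 CPM), EIF4E3 is highest on average with PD0325901, and each treated group of EEF1A1 overlaps control.

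TOP mRNAs among the members are a textbook list of 9. Their calls in either direction numbered 3, 2, 2, 2 and 3 with PI103, PD0325901, oxozeaenol and the combinations of PI103 with oxozeaenol and PD0325901, where 51.4%, 58.6%, 51.9%, 55.6% and 64.8% of all genes were called. With PI103, 2 were higher (EIF3F and EIF4B) and 1 lower (EIF3H), with a median log2 fold change of 0.08. With PD0325901, oxozeaenol, and PI103 with oxozeaenol, 2 were lower in each, with medians of -0.13, -0.04 and -0.01, and with PI103 and PD0325901 3 were lower, with a median of -0.20. The 12 genes with a pyrimidine start had medians between -0.42 and -0.20 over the 5 treatments, and the 34 without one had medians between -0.46 and -0.19. These 12 are not the same set as the list. Of 6 listed genes with a promoter entry, 5 had such a start and EEF1G did not. Among 40 unlisted members, 7 had it.

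The argonaute genes, matched by name only, split. EIF2C4 rose by 0.67 with PI103 (SE 0.10, adjusted p 5.9e-06), by 0.38 with PD0325901 (SE 0.10, adjusted p 0.0026), by 0.45 with PI103 and oxozeaenol (SE 0.10, adjusted p 0.00065) and by 0.65 with PI103 and PD0325901 (SE 0.10, adjusted p 5.1e-06). Its control libraries held 24.3, 21.1, 25.4 and 20.8 CPM and its PI103 libraries 37.9, 33.8, 39.0 and 35.4 CPM, without overlap. EIF2C1 rose by 0.48 with PI103 (adjusted p 0.00011), by 0.30 with PD0325901 (adjusted p 0.0067), by 0.25 with PI103 and oxozeaenol (adjusted p 0.024) and by 0.51 with PI103 and PD0325901 (adjusted p 2.6e-05). The call for EIF2C1 with PI103 and oxozeaenol was lost without control replicate 2 or 4 or that group's replicate 4 (highest adjusted p 0.087). EIF2C2 fell by 0.36 to 0.68 in the 5 treatments.

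**Figure D5:**
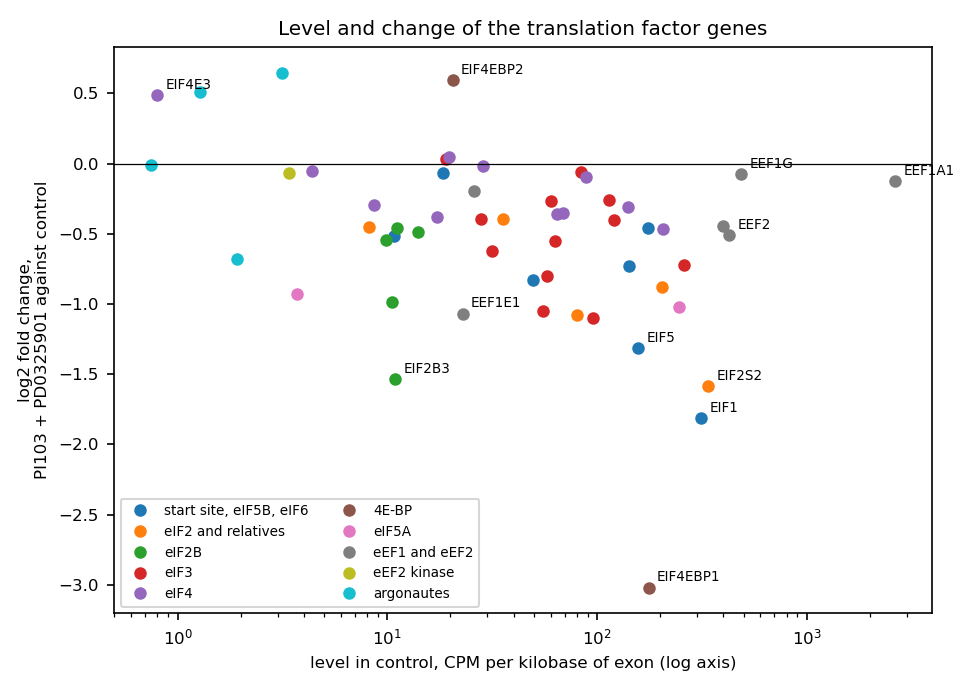
Level in control (CPM per kilobase of exon, log axis, mean of 4 libraries) against the log2 fold change with PI103 and PD0325901, for each of the 55 genes, colored by role. EIF4EBP1 is lowest at -3.02, followed by EIF1, EIF2S2 and EIF2B3, while EEF1A1, with the highest level, stands at -0.13.

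Compared directly, PI103 and PD0325901 differed in 15 of the 55 genes, against 44.5% of all genes tested, 10 higher with PI103 (21.7% of all genes) and 5 lower (22.9%). The replicate block gave 23 genes, and leaving out PI103 replicate 2 or PD0325901 replicate 4 gave 9. EIF4EBP1, EIF4E3 and EIF2S2 were lower with PI103, and EIF4B, EIF2A and EEF2 were among those higher with it. PI103 and oxozeaenol differed in 28 (43.1% of all genes), 12 higher with PI103 (20.6%) and 16 lower (22.5%), among the latter EIF4EBP1, EEF1E1, EIF2S2 and EIF4E. Beyond 1.2-fold (glmTreat), 5 genes differed between PI103 and PD0325901 (25.1% of all genes), 9 between PI103 and oxozeaenol (22.0%) and 1 between oxozeaenol and PD0325901 (9.89%).

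Oxozeaenol and PD0325901 differed in 7 genes (28.5% of all genes), 5 higher with oxozeaenol (13.4%) and 2 lower (15.1%). EEF1E1, EEF1B2, EIF1AX, EIF4E and EIF2S1 were higher with oxozeaenol and EIF4E3 and EIF2C4 lower. The split was 4 and 3 under upper-quartile scaling, the replicate block gave 15 genes, a fit on these groups alone gave 4, and leaving out PD0325901 replicate 1, PD0325901 replicate 2 or oxozeaenol replicate 3 gave 4, 3 and 3. In a joint test of any difference among the 6 groups, 45 of the 55 genes passed, near the 82.7% of all genes that did. The 10 that did not were EEF1A1, EEF1G, EEF2K, EIF2C3, EIF3E, EIF3F, EIF4A3, EIF4E2, EIF4ENIF1 and EIF5B.

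The combinations, with each agent at 50% of its single concentration, were compared with the single agents, so that doses differ in each comparison. PI103 with PD0325901 differed from PI103 alone in 26 genes (38.7% of all genes), 2 higher (18.8%) and 24 lower (19.9%), led by EIF2B3 (-0.94, SE 0.13, adjusted p 4.7e-06), EIF5A (-0.58, SE 0.13, adjusted p 0.00078) and EIF3D (-0.53, SE 0.11, adjusted p 0.00057). EIF4E3 was higher (0.69, SE 0.16, adjusted p 0.0014), and EIF4EBP1 differed by -0.32 (SE 0.22, adjusted p 0.26), which did not pass.

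Against PD0325901 alone, PI103 with PD0325901 differed in 11 genes, 0 higher (8.06% of all genes) and 11 lower (10.0%), where 18.1% of all genes differed in either direction. EIF4EBP1 (-1.46, SE 0.22, adjusted p 8.3e-05), EIF2S2 (-0.80, SE 0.11, adjusted p 1.4e-05), EIF2B3 (-0.63, SE 0.13, adjusted p 0.0018) and EIF1 (-0.61, SE 0.12, adjusted p 0.00078) led. The split was 2 higher and 9 lower under upper-quartile scaling, the replicate block gave 18 genes, a fit on these groups alone gave 6, and leaving out PD0325901 replicate 2 or 3 gave 19 and 7.

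PI103 with oxozeaenol differed from PI103 alone in 5 genes (18.3% of all genes), 0 higher (9.39%) and 5 lower (8.92%): EIF2B3 (-0.40, adjusted p 0.032), EIF4B (-0.36, adjusted p 0.0087), EIF2D (-0.34, adjusted p 0.0013), EEF2 (-0.30, adjusted p 0.045) and EIF3G (-0.27, adjusted p 0.029). A fit on these groups alone gave 13 genes. Leaving out PI103 replicate 1, 2 or 3 gave 2, 2 and 3, and leaving out replicate 1, 3 or 4 of the combination gave 2, 3 and 2.

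Against oxozeaenol alone, PI103 with oxozeaenol differed in 7 genes (14.9% of all genes), 1 higher (7.59%), EIF2C4, and 6 lower (7.28%), among them EIF4EBP1 (-0.98, SE 0.22, adjusted p 0.0038), EIF2S2 (-0.59, SE 0.11, adjusted p 0.00051) and EIF1 (-0.41, SE 0.12, adjusted p 0.017). Under upper-quartile scaling the split was 2 higher and 6 lower. The replicate block gave 15 genes and DESeq2 12. Leaving out oxozeaenol replicate 1, 3 or 4 gave 13, 4 and 12, and leaving out replicate 1 of the combination gave 4. Beyond 1.2-fold (glmTreat), PI103 with oxozeaenol differed from oxozeaenol in 2 genes (3.32% of all genes) and from PI103 in 0 (7.04%), of which 2 had an unadjusted p under 0.05. For PI103 with PD0325901, 6 genes differed from PI103 (19.2%) and 4 from PD0325901 (3.69%).

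Other genes of translation, from fixed lists, are given by count. Beside these counts stand the shares of all genes called, which were 26.2%, 28.7%, 25.7%, 27.7% and 32.2% higher and 25.2%, 29.9%, 26.1%, 27.9% and 32.6% lower, for the single agents PI103, PD0325901 and oxozeaenol and then PI103 combined with oxozeaenol and PD0325901. Of 7 measured termination and recycling genes, 5 were lower with PI103, 4 with PD0325901, 5 with oxozeaenol and 7 with each combination, and none was higher. ETF1, the release factor, fell by 0.96 with PI103, and ABCE1, which splits the ribosome after release, fell by 1.44 with PI103 and PD0325901. Of 10 mitochondrial translation factors, 8, 7, 6, 7 and 8 were lower and 1, 2, 2, 0 and 2 higher in the order PI103, PD0325901, oxozeaenol, PI103 with oxozeaenol and PI103 with PD0325901.

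The 9 genes for the hypusine of eIF5A and the diphthamide of eEF2 were lower in 6, 8, 4, 6 and 9 cases in that order and higher in none. DOHH, which completes hypusine, fell by 0.56 with PI103 and by 0.93 with PI103 and PD0325901. Of 8 measured poly(A)-binding and cap-complex partners, 2, 1, 1, 1 and 3 were higher and 2, 3, 3, 3 and 3 lower. PDCD4, a repressor of eIF4A, rose by 0.95 with PD0325901, and by 0.64 without replicate 2 of that group (adjusted p 0.0014).

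Among 14 kinases and phosphatase subunits that act on the factors, 4, 4, 4, 5 and 4 were higher and 4, 3, 4, 6 and 5 lower, where 51.4%, 58.6%, 51.9%, 55.6% and 64.8% of all genes were called in either direction. PPP1R15A, which directs the phosphatase to eIF2 alpha, fell by 2.19 with PI103, 2.19 with PD0325901 and 2.33 with oxozeaenol. EIF2AK3, encoding the eIF2 alpha kinase PERK, rose by 1.11 with PD0325901 and by 1.13 in the combination of PI103 and PD0325901 at 50% of each concentration. Without replicate 2 of the treated group these values were 0.88 and 0.93. EIF2AK3 also rose by 0.63 with PI103 and oxozeaenol (adjusted p 0.0021). With oxozeaenol it rose by 0.41 (adjusted p 0.037), a call lost without oxozeaenol replicate 1 (adjusted p 0.12). Its value with PI103 was 0.24 (adjusted p 0.22), which passed in a fit on those groups alone (adjusted p 0.019).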

How the data were processed

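RNA was sequenced from 24 cultures of AGS cells, with libraries made by a stranded mRNA kit, per the labels' protocols. The authors deposited whole-number read counts per gene, and per the submitters' processing notes the build is GRCh38. The aligner, the counting program and the gene annotation are not given in the sources used here. Groups came from the sample titles, and the design text calls the 4 samples of a group biological replicates. In total, 5 tally rows of unassigned reads were left out. They held, per library, 4.24% to 8.57% of reads with no feature, 1.57% to 2.01% ambiguous and 4.64% to 6.06% without a unique alignment. The shares with no feature were highest in oxozeaenol replicate 4 (8.57%) and PI103 with oxozeaenol replicate 4 (8.50%). Genes with a count numbered 15645 to 18263 per library, with the most in oxozeaenol replicate 2.

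From the counts, 13947 of 23368 genes passed edgeR's filterByExpr. Library sizes were scaled by TMM, and edgeR 4.0.16 (R 4.3.3) fitted the counts with 1 coefficient per group over all 24 libraries and no block. The quasi-likelihood F test (2-sided) was run for 12 comparisons and 1 joint comparison. Adjustment was by Benjamini-Hochberg across the genes tested, and a gene was called below 0.05. Every adjusted p is from this test unless another is named. SEs come from the log2 fold change and its F value (its size over the root of F). Each library held 38057638 to 84226380 counts, and the precision of each value comes from the spread over 4 libraries.

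The labels give each sample a batch, and its number equals the replicate number, so the numbers pair the samples. Deviations from group means correlated by 0.12 on average over 60 pairs of libraries with the same number (47 positive) and by -0.04 over 180 pairs with different numbers. No 2 replicates of a group agreed within sampling noise (lowest chi-square per degree of freedom 8.56 over 36 pairs).

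Genes described whatever their values were 17 set symbols. To these were added, per treatment, the 3 largest rises and falls among called genes that averaged 5 CPM or more and moved 1 way in each of the 4 batches. EIF1B, EIF2S3, EIF2B3, EIF3D, EIF3E, EIF3F, EIF3J, EIF3L, EIF3M, EIF4G2, EIF5B, EIF6, EIF2A, EIF2D, EIF5AL1, EIF2C2 and the EEF1 genes other than EEF1A1 were named after their values were seen, as were the single genes of the other lists. The members and lists were chosen with earlier results of these data known. Alternatives were a replicate block, DESeq2 1.42.0, other size factors (RLE, upper quartile), no filter on low counts, a minimum fold of 1.2, a fit on the compared groups only, and leaving out each library. Lengths (all annotated exons of a gene joined) and overlaps are from GENCODE release 29.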

Additional observations from a re-analysis of the deposited data

Results flagged for a closer look

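Within each group of 4 libraries, the highest or lowest value of each of the 55 genes was checked for standing apart from the others, by the gap to its neighbor over the whole range (Dixon's criterion at 95%). Of 330 groups, 23 (6.97%) held such a value, where chance gives about 1 in 20 (5%). They occurred in 14 libraries, and 5 of the 23 were in PI103 with oxozeaenol replicate 4.

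PI103 with oxozeaenol replicate 4 stood apart in EEF2 at 1142 CPM (others 1303 to 1330), EIF3E at 798 CPM (others 576 to 609), EIF3G at 71.4 CPM (others 78.7 to 79.6), EIF4B at 499 CPM (others 565 to 570) and EIF4E2 at 167 CPM (others 142 to 145). PD0325901 replicate 2 stood apart in EIF4E3 at 17.5 CPM (others 12.8 to 13.0) and EIF5 at 541 CPM (others 748 to 777). PI103 replicate 2 stood apart in EIF2B5 at 64.3 CPM (others 60.5 to 60.9) and EIF4H at 473 CPM (others 426 to 431). PI103 with PD0325901 replicate 1 stood apart in EIF3H at 292 CPM (others 328 to 334) and EIF4ENIF1 at 28.98 CPM (others 24.4 to 25.0). Oxozeaenol replicate 1 stood apart in EIF3A at 384 CPM (others 323 to 325) and EIF4EBP2 at 240 CPM (others 198 to 204). Oxozeaenol replicate 4 stood apart in EEF1G at 1109.6 CPM (others 1351 to 1375) and EIF6 at 123 CPM (others 172 to 175). PD0325901 replicate 4 stood apart in EIF1AD at 25.8 CPM (others 27.7 to 28.1). PI103 replicate 4 stood apart in EIF4B at 626 CPM (others 734 to 740). PI103 with PD0325901 replicate 2 stood apart in EIF4A3 at 134 CPM (others 141 to 142). PI103 with PD0325901 replicate 4 stood apart in EIF2C3 at 17.4 CPM (others 14.95 to 15.3). PI103 with oxozeaenol replicate 2 stood apart in EIF4EBP1 at 59.3 CPM (others 37.1 to 37.8). Control replicate 1 stood apart in EIF2B3 at 35.8 CPM (others 37.4 to 37.5). Control replicate 3 stood apart in EIF1B at 85.2 CPM (others 96.9 to 98.6). Oxozeaenol replicate 2 stood apart in EIF4E3 at 12.01 CPM (others 9.24 to 9.63).

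EIF4EBP1 in PI103 with oxozeaenol replicate 2 and EIF4B in PI103 replicate 4 belong to genes described above, and each call against control that rests on those libraries passed without them, as did that of EIF5 with PD0325901 without replicate 2.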

How the results depend on the processing

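The 9 genes under the count minimum were left out, and precision is that of 4 libraries a group. A minimum change of 1.2-fold moved most counts of members called by more than 1.5 times: PI103 18, PD0325901 25 and oxozeaenol 14 against control, PI103 against PD0325901 5 and against oxozeaenol 9, oxozeaenol against PD0325901 1, PI103 with oxozeaenol against PI103 0 (glmTreat; 2 at an unadjusted p under 0.05, 5 by the quasi-likelihood test and 6 by DESeq2) and against oxozeaenol 2, and PI103 with PD0325901 against PI103 6 and against PD0325901 4. The replicate block, which pairs libraries by batch number, raised the count for PI103 against PD0325901 to 23, for oxozeaenol against PD0325901 to 15, for PI103 with oxozeaenol against oxozeaenol to 15 and for PI103 with PD0325901 against PD0325901 to 18. It lost no call of a member in any of the 12 comparisons. A fit on the groups compared only gave 4 for oxozeaenol against PD0325901, 13 for PI103 with oxozeaenol against PI103 and 6 for PI103 with PD0325901 against PD0325901, and DESeq2 gave 12 for PI103 with oxozeaenol against oxozeaenol. Leaving out each library gave 9 to 19 for PI103 against PD0325901, 3 to 10 for oxozeaenol against PD0325901, 2 to 4 for PI103 with oxozeaenol against PI103, 4 to 13 for PI103 with oxozeaenol against oxozeaenol and 7 to 19 for PI103 with PD0325901 against PD0325901. The cause was not tested. The other counts stayed within 1.5 times, at 34 to 37, 32 to 39, 23 to 32, 31 to 34 and 40 to 43 for the 5 treatments against control without single libraries.

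Of 3000 recomputed log2 fold changes of named genes, 2810 kept their direction and their side of the threshold, 101 were no longer called, 17 became called and 72 turned in sign. None of the 72 was called before or after. Upper-quartile scaling moved the median of all genes by 0.06 to 0.14. In it the values that turned sign were EEF2K 0.029 and EIF4E2 0.076 with PI103, EEF2K 0.042, EIF3L 0.068 and EEF1D 0.036 with PD0325901, EIF2C4 0.0497, EIF3F 0.0198, EIF3L 0.048, EEF1G 0.031 and EEF1D 0.039 with oxozeaenol, EEF1A1 0.066 with PI103 and oxozeaenol, and EIF4B 0.049, EEF1A1 0.017, EEF2K 0.077, EIF3L 0.086 and EEF1G 0.069 with PI103 and PD0325901. With no filter on low counts they were EIF4B -0.027, EIF4E3 -0.021, EIF3F -0.012, EEF1D -0.0052 and PDCD4 -0.0045 with PI103 and oxozeaenol. In the fit on the compared groups only they were EIF4E2 0.0042 with PI103, EIF3L 0.0067 with PD0325901, EIF2C4 0.0011 and EIF3L 0.0019 with oxozeaenol, and EEF1A1 0.00297 with PI103 and oxozeaenol. Without single libraries the values that turned ran over EEF2K -0.12 to 0.021 and EIF4E2 -0.084 to 0.048 with PI103, EEF2K -0.13 to 0.016, EIF3L -0.058 to 0.012 and EEF1D -0.13 to 0.032 with PD0325901, EIF2C4 -0.0597 to 0.043, EIF3L -0.052 to 0.0296, EEF1B2 -0.044 to 0.15, EEF1D -0.071 to 0.066, EIF4A2 -0.16 to 0.027, EEF1E1 -0.047 to 0.24, EIF3F -0.078 to 0.038 and EEF1G -0.059 to 0.0396 with oxozeaenol, EIF4B -0.031 to 0.082, EEF1A1 -0.034 to 0.025, PDCD4 -0.036 to 0.11 and EIF4E3 -0.032 to 0.16 with PI103 and oxozeaenol, and EEF2K -0.14 to 0.00086, EIF3F -0.019 to 0.061 and EIF4E2 -0.0095 to 0.13 with PI103 and PD0325901.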
